A study of Mus musculus with 6 samples.

Results

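The genes described here are 41 named mouse genes for leukocyte and macrophage surface proteins and for the signalling proteins behind them, read in cultures labelled as primary kidney fibroblasts. They were chosen from a gene list by name, with the outcome of this very comparison already known. Of the 41, 40 had 10 or more counts summed over the 6 libraries and were kept, out of 14921 of 22274 genes in the deposited table with as many. Because the contrast between the groups served to choose the genes, their differences are given as a description with standard errors and without p-values. Of the 40, 37 also passed the low-count filter of the gene-wide fit and have a fitted log2 fold change.

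Macrophages are phagocytes of the innate immune system, and the kidney holds a resident population between its tubules. Pan-leukocyte membrane proteins such as CD45 mark all nucleated blood-derived cells, whereas F4/80, lysozyme and the fractalkine receptor are commonly used to recognise macrophages. Lectin and scavenger receptors bind microbial sugars, modified lipoproteins and debris. Kinases, adaptors and actin regulators of haematopoietic cells carry the signal inward, and the transcription factor PU.1, which binds sites with a GGAA core, directs much of the macrophage programme.

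All 6 cultures were labelled as primary mouse kidney fibroblasts, grown with 10% fetal bovine serum and exposed for 48 h to TGF-β (5 ng/ml), so the controls carried the cytokine too. Scrambled control siRNA was used in 3 libraries, given as WT in the genotype field, and siRNA against Prune2 in the other 3, given there as a Prune2 knockdown. No source used here gives the age, sex or strain of the animals, the purity of the fibroblasts or whether replicates were separate cultures, so any p-value measures a spread between libraries that may be technical only. In RNA from whole cultures, fewer cells of a type and less RNA per cell cannot be told apart.

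Library totals ran from 20075265 to 23234797 counts. The targeted gene, Prune2, had 133, 157 and 150 counts with control siRNA and 80, 73 and 104 counts with its own siRNA. Its level was 6.95 ± 0.775 CPM (counts scaled to a library of 1000000, SD, n = 3) in controls and 3.80 ± 0.629 CPM with the siRNA (n = 3), lower by 45.3%, with an adjusted p of 0.000214 in edgeR's quasi-likelihood test. Over all 13248 tested genes that test called 10.3% at an adjusted p under 0.05, with 5.83% lower and 4.46% higher in the Prune2 siRNA libraries.

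The promoters are shown first for 6 listed genes picked by hand from across the range of differences. The Plek window lies inside the annotated span of that gene (chr11:16971206-17052381), which begins further upstream. Each run holds the 250 bases before the RefSeq transcript start on GRCm38.p6, in the direction of transcription. Capitals mark the letters GAGGAA or AGGAAGT on either strand, which both hold the GGAA core. GAGGAA was searched as a PU.1-type form, and AGGAAGT as a general form of the wider ETS family of factors.
Evi2b, chr11:79523763-79524012, minus strand: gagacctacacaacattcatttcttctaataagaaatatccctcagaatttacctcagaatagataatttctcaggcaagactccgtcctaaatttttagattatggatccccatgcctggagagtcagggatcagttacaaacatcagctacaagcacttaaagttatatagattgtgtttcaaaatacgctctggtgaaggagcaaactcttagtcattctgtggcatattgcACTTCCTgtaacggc
Pf4, chr5:90772185-90772434, plus strand: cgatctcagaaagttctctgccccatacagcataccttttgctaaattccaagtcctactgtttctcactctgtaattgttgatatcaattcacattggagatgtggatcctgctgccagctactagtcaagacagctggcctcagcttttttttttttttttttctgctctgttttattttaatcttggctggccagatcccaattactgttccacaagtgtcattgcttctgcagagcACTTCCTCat
Plek, chr11:17008719-17008968, minus strand: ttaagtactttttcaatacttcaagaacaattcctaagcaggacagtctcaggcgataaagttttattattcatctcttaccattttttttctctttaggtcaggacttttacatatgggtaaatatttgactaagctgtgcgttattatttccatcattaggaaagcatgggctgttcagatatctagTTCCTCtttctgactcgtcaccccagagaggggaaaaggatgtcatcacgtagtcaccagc
Cd53, chr3:106790150-106790399, minus strand: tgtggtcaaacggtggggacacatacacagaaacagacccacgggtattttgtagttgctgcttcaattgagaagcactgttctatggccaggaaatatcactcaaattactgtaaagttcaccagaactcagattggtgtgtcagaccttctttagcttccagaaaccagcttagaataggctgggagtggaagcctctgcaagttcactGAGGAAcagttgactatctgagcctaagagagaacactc
Cd68, chr11:69666171-69666420, minus strand: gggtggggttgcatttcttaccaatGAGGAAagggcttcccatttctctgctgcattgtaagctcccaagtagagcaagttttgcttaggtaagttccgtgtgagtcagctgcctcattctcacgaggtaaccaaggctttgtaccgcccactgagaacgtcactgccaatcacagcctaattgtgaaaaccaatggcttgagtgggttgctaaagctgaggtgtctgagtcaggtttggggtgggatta
Arhgdib, chr6:136941900-136942149, minus strand: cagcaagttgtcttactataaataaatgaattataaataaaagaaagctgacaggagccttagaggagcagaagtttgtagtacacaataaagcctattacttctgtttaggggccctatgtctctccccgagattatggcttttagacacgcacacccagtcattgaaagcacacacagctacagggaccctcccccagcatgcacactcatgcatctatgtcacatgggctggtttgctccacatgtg
Evi2b kept 2.72% of its control level and Pf4 5.32%, Plek and Cd53 lay near the median of the listed genes, and Cd68 and Arhgdib kept more. Counted from the transcript start, the match begins at base -15 in Evi2b, -10 in Pf4, -61 in Plek, -39 in Cd53 and -225 in Cd68. In windows not shown, a match begins at base -7 in Aif1 and -19 in Tbxas1, which kept 26.8% and 34.8%. No window of Cx3cr1, which kept 5.27%, holds a match. Whether the place of a match goes with the size of the difference was not tested. The first of the 3 Arhgdib windows, the run shown, holds no match, and that says only that these letters are not in this window. The second Arhgdib window holds AGGAAGT from base -233 and the third holds GAGGAA from base -134.

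RefSeq windows were found for 31 of the 41 genes, 37 windows in all, since 5 genes have 2 or more. GAGGAA, read on both strands, stood in 51.4% of these windows and in 23.3% of all 32851 windows of the same length. AGGAAGT, which can overlap it, stood in 29.7% against 7.69%, and the joined form GAGGAAGT in 5.41% against 2.44%. The GC box GGGCGG stood in 13.5% of the listed genes' windows and 32.7% of all, and TTGCNNNA, a loose form of the site bound by C/EBP proteins, in 48.6% against 29.3%. For CCAAT the shares were 32.4% and 33.8%, for TATAAA 13.5% and 12.4%, and for TGANTCA, the AP-1 form, 10.8% and 6.75%. The interferon-stimulated response element stood in 2.70% against 2.98%, and the full palindrome TTGCGCAA in none of the windows of listed genes against 0.164% of all. These 10 shares are descriptions of letters in windows that partly overlap, with no test.

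Nearly all of the listed leukocyte genes were read at a fraction of their control level in the Prune2 siRNA libraries, while Lyn and Arhgdib differed little. The fitted log2 fold changes (Prune2 siRNA over control) of the 37 genes ran from -5.58 to -0.11 with a median of -2.54, quartiles of -3.21 and -2.23 and an SD of 1.16 between genes. Over all tested genes the median was 0.004 and the SD 0.407. The share of the control level that remained ran from 1.46% for Cd48 to 92.8% for Lyn, with a median of 16.7%. The call rule of the gene-wide test was met by 34 of the 37, all lower, against the background of 5.83%; the rule for choosing the genes used this contrast, so nothing is read from that count. The groups were also fully separate, with every siRNA library under every control library, in 34 of 37 genes, where 12.4% of all tested genes were. The 3 outside the call rule were Lilrb4a, Arhgdib and Lyn.

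The differences fell into an even middle and 2 tails. A log2 fold change between -3 and -2 was found for 18 of the 37, between -2 and -1 for 6, and above -1 for 2. Another 5 lay between -4 and -3, and 6 at or below -4. At -1 or lower stood 35 of the 37, where 1.99% of all tested genes did, and at -2 or lower 29, against 1.15%. These shares too come from the contrast that chose the genes. The typical standard error of a single gene was 0.34. Each standard error is the absolute log2 fold change divided by the square root of the quasi-likelihood F statistic. It is symmetric, and so only rough for genes with few counts. Of the 37, 23 lay within 2 standard errors of the genes' own median, 8 lay further below it and 6 further above. The 8 below were Evi2b, Cx3cr1, Cd48, Pf4, Alox5ap, Pld4, Tmem273 and Ms4a6b, and the 6 above were Clec7a, Cd84, Tbxas1, Cd68, Arhgdib and Lyn. Summed over the 3 siRNA libraries, Cd48, Alox5ap, Tmem273, Evi2b, Pf4 and Ms4a6b had 1, 2, 3, 5, 8 and 8 counts. Pld4 and Cx3cr1 had 14 and 16, so the size of the differences in this lower tail rests on few reads. Among all tested genes, Cd48, Evi2b and Alox5ap had the 3 lowest fold changes, and Lyn stood at rank 2591.

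**Figure D1:**
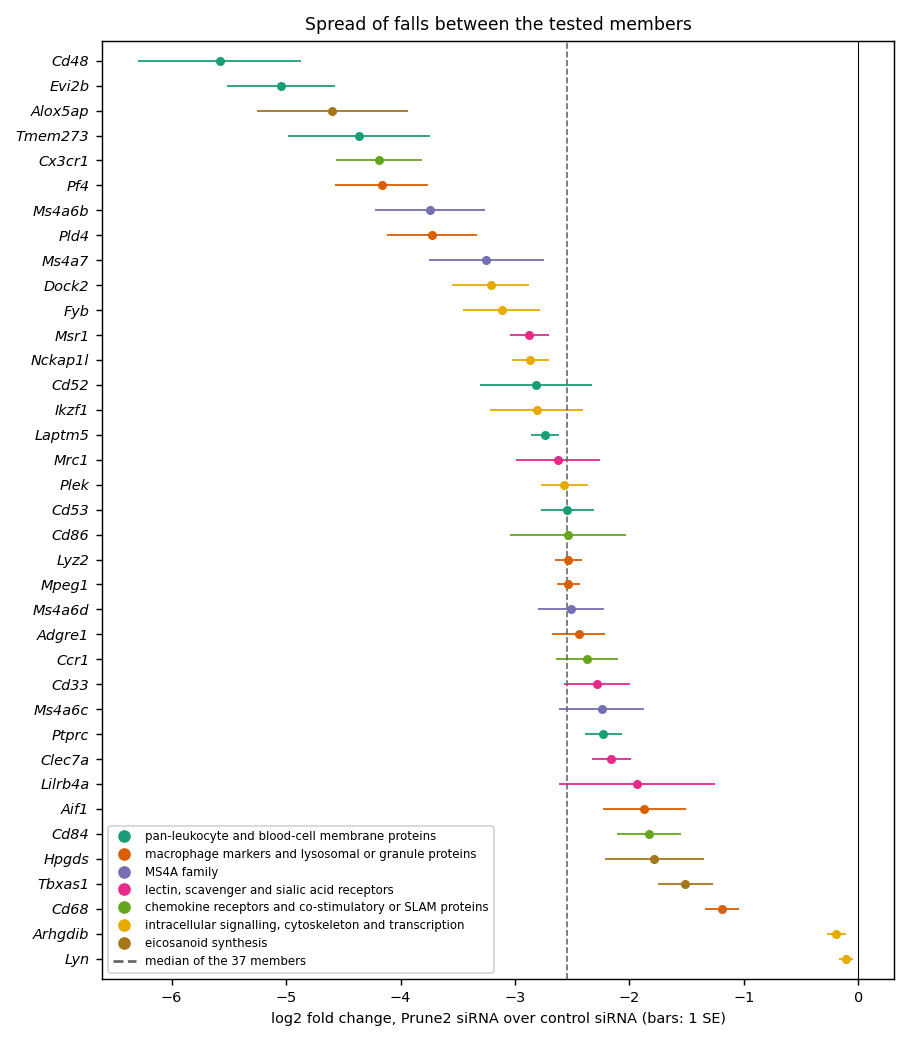
Fitted log2 fold change of Prune2 siRNA over control siRNA for the 37 tested genes, sorted by size and coloured by role, with 1 standard error as bars and the genes' median as a dashed line. Of the 37 genes, 18 lie between -3 and -2, Cd48 and Evi2b lie lowest at -5.58 and -5.05, and Lyn and Arhgdib lie near 0.

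The pan-leukocyte membrane proteins had a median log2 fold change of -2.81 over 7 genes. Ptprc (chr1:138062861-138175708), which encodes the phosphatase CD45 found on all leukocytes, was read at 9.96, 8.90 and 8.08 CPM in the controls and at 1.51, 2.23 and 1.96 CPM with the Prune2 siRNA. The groups did not overlap, and 21.2% of the control mean remained (log2 fold change -2.23, SE 0.16). Laptm5 (chr4:130913125-130936141), a lysosomal membrane protein of blood cells, stood at 16.7, 16.1 and 14.9 CPM against 2.22, 2.57 and 2.35 CPM. All 3 siRNA libraries were low to a similar degree, with 14.9% remaining (-2.74, SE 0.12). Cd53 (chr3:106759921-106790149), a leukocyte tetraspanin, had close control values of 4.15, 4.25 and 4.35 CPM. With the siRNA it was read at 0.614, 0.742 and 0.812 CPM, 17.0% of control (-2.54, SE 0.23).

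Evi2b (chr11:79515056-79523762), a membrane protein of blood cells whose gene lies within Nf1, was read at 3.32, 2.60 and 2.00 CPM in the controls. In the siRNA libraries it stood at 0, 0.0873 and 0.128 CPM, and its log2 fold change was -5.05 (SE 0.47), or -5.69 without Prune2 siRNA replicate 3. Of its 50-base stretches, 98.6% are also in the overlapping Evi2 readthrough model, so the reads of these models cannot be told apart. Summed over both rows, the counts were 68, 57 and 48 in the controls and 0, 2 and 3 with the siRNA.

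Cd48 (chr1:171682009-171705258), a SLAM-family ligand on leukocytes, had 18, 21 and 23 counts in the controls and 0, 0 and 1 with the siRNA. The ratio of the summed counts, control over siRNA and scaled to library size, was 65.9 with a 95% interval of 11.4 to 2646 that covers counting error only. Its fold change rests on 1 read: the fitted log2 value of -5.58 became -7.40 without Prune2 siRNA replicate 3 and -4.96 in limma-voom. Tmem273 (chr14:32785963-32817984), a small membrane protein, had 17, 28 and 20 counts against 2, 1 and 0, a ratio of scaled sums of 23.0 (7.54 to 115) and a log2 fold change of -4.36 (SE 0.62), or -5.24 without Prune2 siRNA replicate 1. Cd52 (chr4:134082448-134095082), a short glycoprotein of lymphocytes and monocytes, ran at 1.22, 2.15 and 1.13 CPM against 0.0944, 0.0436 and 0.470 CPM. Its highest siRNA library was Prune2 siRNA replicate 3, and the log2 fold change of -2.81 (SE 0.49) became -4.34 without it. The antisense gene Crybg2 overlaps it and shares 8.89% of its 50-base stretches.

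Macrophage markers and lysosomal or granule proteins had a median of -2.53 over 7 genes. Lyz2 (chr10:117277331-117282321), which encodes lysozyme, was the highest of the 37 per length at 27.6 ± 4.95 FPKM in controls (fragments scaled by the authors to transcript length and library size, SD, n = 3). It was read at 36.5, 43.0 and 29.9 CPM in the controls and 6.65, 5.28 and 6.88 CPM with the siRNA, a log2 fold change of -2.53 (SE 0.12). It shares 15.4% of its 50-base stretches with its paralogue Lyz1, which had 0 counts in every library. Mpeg1 (chr19:12460779-12465283), a pore-forming protein of phagocyte vesicles, gave 35.5, 35.8 and 28.6 CPM against 5.80, 5.93 and 5.47 CPM. In both genes 17.2% of the control mean remained, and the siRNA libraries lay close together.

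Adgre1 (chr17:57358691-57483527), the gene of the F4/80 antigen, stood at 5.27, 7.80 and 5.43 CPM in the controls and 1.37, 1.35 and 0.683 CPM with the siRNA (18.4% remaining, -2.44, SE 0.23). Cd68 (chr11:69664213-69666153), a lysosomal membrane protein used to stain macrophages, differed less than the others of its group. Its levels were 7.47, 7.40 and 6.39 CPM against 2.74, 3.01 and 3.50 CPM, still fully separate, with 43.5% remaining (-1.19, SE 0.15). Aif1, which encodes the actin-binding protein IBA1, went from 1.26 ± 0.118 to 0.337 ± 0.0961 CPM (SD, n = 3 each; -1.87, SE 0.36).

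Pf4 (chr5:90772435-90773383) encodes platelet factor 4, a chemokine of platelets and of some macrophages. It was read at 1.86, 2.50 and 2.30 CPM in the controls and at 0.0944, 0.175 and 0.0854 CPM with the siRNA. All 3 siRNA libraries were low, with 5.32% remaining (-4.16, SE 0.41). Of 9 other platelet genes looked at, 5 were at 0 in all libraries, 2 were tested and neither was called. One of these, Ppbp, stood at 45.1 ± 4.96 CPM in controls and 46.8 ± 3.35 CPM with the siRNA (SD, n = 3 each; adjusted p = 0.771, edgeR's quasi-likelihood test). Pld4 (chr12:112760655-112768990), a lysosomal exonuclease, stood at 2.10, 3.00 and 3.35 CPM against 0.425, 0.131 and 0.0854 CPM (-3.73, SE 0.39). Its highest siRNA library was replicate 1, and the value became -4.64 without it.

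**Figure D2:**
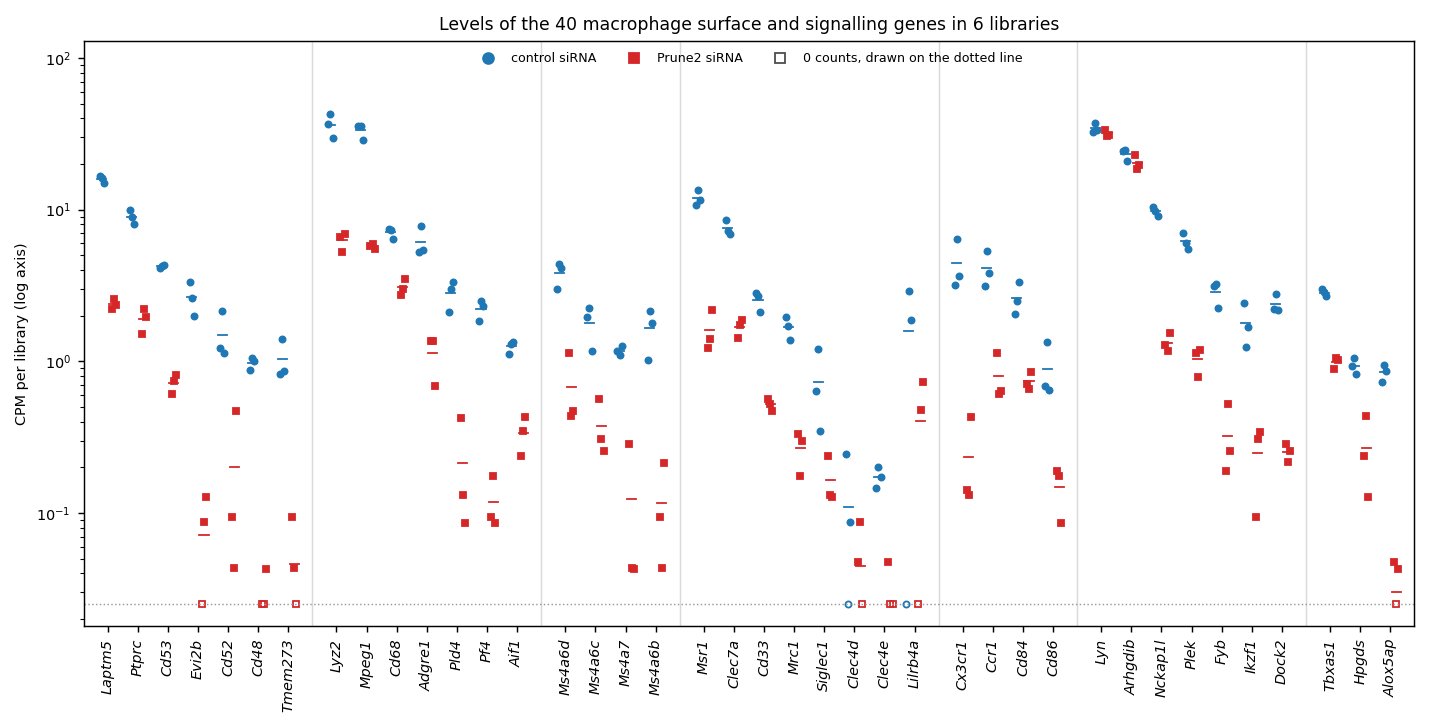
Level of each kept gene in every library, in CPM on a log axis, with control siRNA and Prune2 siRNA libraries in different colours, short lines at the group means and open marks for 0 counts. The groups are apart for most genes and overlap for Lyn, Arhgdib, Lilrb4a and Clec4d.

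The 4 genes of the MS4A family, tetraspan membrane proteins that lie in 1 stretch of chromosome 19 between bases 11321039 and 11604849, had a median of -2.88 and an SD of 0.685. Ms4a6b was read at 1.03, 2.15 and 1.78 CPM against 0.0944, 0.0436 and 0.214 CPM (-3.74, SE 0.48), and at -4.49 without Prune2 siRNA replicate 3. Ms4a7 was even in the controls, at 1.17, 1.10 and 1.26 CPM, and uneven with the siRNA, at 0.283, 0.0436 and 0.0427 CPM. Its log2 fold change of -3.25 (SE 0.50) became -4.60 without Prune2 siRNA replicate 1. Ms4a6d (-2.51, SE 0.29) and Ms4a6c (-2.24, SE 0.37) kept 17.7% and 21.0% of their control level. Ms4a6c shares 51.4% of its 50-base stretches with other gene models, most of them the antisense gene BE692007, and no source used here says whether counting used the strand.

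The lectin, scavenger and sialic acid receptors differed fairly evenly among themselves: the 5 tested of 8 had a median of -2.28 and an SD of 0.376. Msr1 (chr8:39581685-39642673), a scavenger receptor for modified lipoproteins, stood at 10.7, 13.4 and 11.5 CPM in the controls and 1.23, 1.40 and 2.18 CPM with the siRNA (13.5% remaining, -2.87, SE 0.17). Clec7a (chr6:129461591-129472779), which encodes the β-glucan receptor dectin-1, gave 8.50, 7.20 and 6.95 CPM against 1.42, 1.75 and 1.88 CPM (22.3% remaining, -2.16, SE 0.17). Mrc1, the mannose receptor, kept 15.9% (-2.62, SE 0.37), and Cd33, a sialic acid receptor, kept 20.4% (-2.28, SE 0.29).

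Lilrb4a (chr10:51490956-51496611), an inhibitory receptor of myeloid cells, is uncertain. It had 0, 58 and 43 counts in the controls and 0, 11 and 17 with the siRNA, so the groups overlapped because replicate 1 of each had none (-1.93, SE 0.68). The value ran to -1.22 without control replicate 2, to -2.65 without Prune2 siRNA replicate 3 and to -1.29 in limma-voom. A gene model on the same strand, Gm49339, shares 33.7% of the 50-base stretches and had 114, 77 and 51 counts against 19, 3 and 10. Summed over both rows, the control libraries held 114, 135 and 94 counts and the siRNA libraries 19, 14 and 27, which do not overlap.

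At the edge of the count minimum stood 3 receptors that were too low to be tested. Clec4d, a C-type lectin, had 10 counts in all, with 5, 0 and 2 in the controls and 1, 2 and 0 with the siRNA. Clec4e, which encodes the lectin Mincle, had 12, with 3, 4 and 4 against 1, 0 and 0. The chemokine receptor Ccr2, a marker of monocytes recruited from blood, fell outside the minimum with 7 counts, 3, 1 and 3 in the controls and 0 in each siRNA library. Siglec1, a sialic acid receptor of tissue macrophages, had 13, 24 and 8 counts against 5, 3 and 3 and also missed the low-count filter. None of these 4 genes has a fitted fold change.

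Chemokine receptors and co-stimulatory or SLAM proteins had a median of -2.45 over 4 tested genes. Cx3cr1 (chr9:119901616-120069879), the fractalkine receptor of resident macrophages and microglia, was read at 3.17, 6.45 and 3.65 CPM in the controls and 0.142, 0.131 and 0.427 CPM with the siRNA. Control replicate 2 was high, and the control SD of 1.77 CPM exceeded the 0.457 CPM that counting alone would give, yet the groups stayed apart with 5.27% remaining (-4.19, SE 0.38). Without Prune2 siRNA replicate 3 the value was -4.96. Ccr1, a receptor for inflammatory chemokines on the same chromosome, kept 19.4% (-2.37, SE 0.27). Cd86, a co-stimulatory ligand for T cells, kept 16.7% (-2.53, SE 0.51), and Cd84, a SLAM-family receptor, kept 28.1% (-1.83, SE 0.28).

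Genes for signalling, cytoskeletal and nuclear proteins had a median of -2.81 over 7 and a wide SD of 1.37. Nckap1l (chr15:103453794-103498810), the blood-cell subunit of the actin-regulating WAVE complex, stood at 10.4, 9.80 and 9.12 CPM against 1.27, 1.18 and 1.54 CPM (13.6% remaining, -2.87, SE 0.16). Plek (chr11:16971206-17052381), which encodes pleckstrin, a protein kinase C substrate, stood at 7.03, 6.05 and 5.52 CPM against 1.13, 0.785 and 1.20 CPM (-2.57, SE 0.21). Dock2, an activator of the GTPase Rac, kept 10.6% (-3.21, SE 0.34), and Fyb, an adaptor between immune receptors and actin, kept 11.2% (-3.12, SE 0.34). Ikzf1, the zinc finger factor Ikaros, gave 2.44, 1.25 and 1.69 CPM against 0.0944, 0.305 and 0.342 CPM (-2.81, SE 0.41).

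Lyn and Arhgdib stood apart from every other listed gene. Lyn (chr4:3678115-3813122), a SRC-family kinase, was read at 32.3, 37.3 and 33.3 CPM in the controls and 33.6, 30.7 and 31.2 CPM with the siRNA. The groups overlapped, and the log2 fold change was -0.11 (SE 0.06). Other gene models share 18.3% of its 50-base stretches. Arhgdib (chr6:136923655-136941899), a cytosolic protein abundant in blood cells, gave 24.4, 24.7 and 21.0 CPM against 22.9, 18.6 and 19.8 CPM, also overlapping (-0.19, SE 0.08). They were the 2 highest of the listed genes after Lyz2 per length in controls, at 20.5 ± 1.78 FPKM for Arhgdib and 9.90 ± 0.77 FPKM for Lyn (SD, n = 3). Of the summed level of the 40 kept genes, Lyn made up 13.4% in controls and 36.7% with the siRNA, and Arhgdib 9.10% and 23.5%. Which cells of the cultures the reads of these genes came from was not tested.

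Of the 3 genes of eicosanoid synthesis, the pathway from arachidonic acid to leukotrienes, prostaglandins and thromboxane, the median was -1.78. Alox5ap, whose product presents arachidonic acid to 5-lipoxygenase, had 15, 19 and 20 counts in the controls and 1, 0 and 1 with the siRNA, a ratio of the summed counts, scaled to library size, of 28.7 (95% counting interval 7.57 to 243). Tbxas1, thromboxane synthase, ran at 2.98, 2.85 and 2.69 CPM against 0.897, 1.05 and 1.03 CPM. Its replicates were close within each group, and 34.8% remained (-1.51, SE 0.24). Hpgds, a prostaglandin D synthase of immune cells, ran at 0.928, 1.05 and 0.826 CPM against 0.236, 0.436 and 0.128 CPM (-1.78, SE 0.43).

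**Figure D3:**
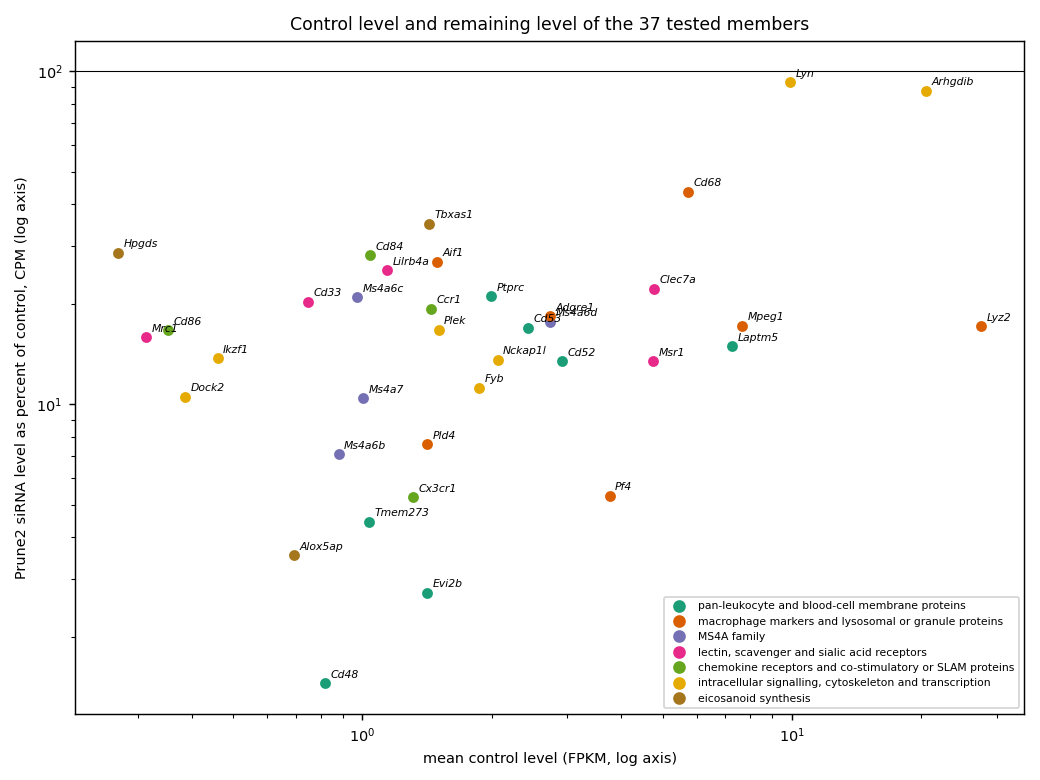
Percent of the mean control level that remained in the Prune2 siRNA libraries (log axis), against the control level in FPKM on a log axis, for the 37 tested genes, coloured by role. Lyn and Arhgdib lie at the top at 92.8% and 87.4%, and Cd48 lies at the bottom at 1.46%.

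Summed over the 40 kept genes, the level was 255, 282 and 233 CPM in the controls and 90.7, 82.7 and 87.3 CPM with the siRNA, so that 33.9% remained. Without Lyn and Arhgdib the sums were 198, 220 and 179 CPM against 34.1, 33.4 and 36.3 CPM, with 17.4% remaining. Control replicate 2 was the highest control library for 21 of the 37 genes, replicate 1 for 11 and replicate 3 for 5. Across genes, log2 control FPKM and log2 fold change had a Pearson correlation of 0.362 and a Spearman correlation of 0.294 over 37 genes. Without Lyn and Arhgdib these were 0.152 and 0.175 over 35 genes. The control level enters both measures. These points share the same 6 libraries and are a description.

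The deposited FPKM values gave log2 ratios that differed from those of the counts by over 0.3 for 4 tested genes. For Ikzf1 the ratio of mean FPKM was -1.86 where that of mean CPM was -2.86, and for Fyb it was -3.92 where CPM gave -3.16. For Cd33 the values were -2.81 and -2.30, and for Cd48 -5.62 and -6.10.

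Other genes of the same pathways, outside the 41, were read from lists and tested with edgeR's quasi-likelihood test over all genes, against the background of 5.83% lower and 4.46% higher. The lists were drawn up with earlier results of these data known. Of 12 further macrophage markers, 11 fell, 0 rose and 1 was not called, with a median log2 fold change of -2.88. Cd74, the invariant chain of antigen presentation, fell from 42.7 ± 2.30 to 5.50 ± 0.680 CPM (SD, n = 3 each; -2.95, SE 0.09, adjusted p = 7.37e-18). Ctss, a lysosomal protease, fell from 23.7 ± 2.46 to 3.32 ± 0.585 CPM (-2.84, SE 0.12, adjusted p = 8.13e-15). The one not called was the lipopolysaccharide co-receptor Cd14, at 7.54 ± 0.334 and 8.55 ± 1.03 CPM (0.18, SE 0.12, adjusted p = 0.459).

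Of 28 tested haematopoietic signalling genes, 23 fell, 1 rose and 4 were not called, with a median of -1.57. Inpp5d, the lipid phosphatase SHIP1, fell from 7.87 ± 0.370 to 2.31 ± 0.235 CPM (-1.76, SE 0.15, adjusted p = 4.6e-09). Its call was lost in limma on log2(FPKM + 0.1) (-1.10, adjusted p = 0.115) and on log2(FPKM + 1) (-0.59, adjusted p = 0.108). Hcls1, an actin-binding relative of cortactin, fell by 2.02 on the log2 scale (SE 0.18). The gene that rose was the adaptor Blnk, from 14.9 ± 1.09 to 20.2 ± 2.52 CPM (0.44, SE 0.09, adjusted p = 0.00117).

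Of 9 tested genes in a list of inhibitory receptors and tetraspanins, 8 fell and 1 was not called (median -2.44). None of the 9 is a tetraspanin. The collagen receptor Lair1 had a log2 fold change of -3.37 (SE 0.35), and Sirpa, the receptor for CD47, one of -0.56 (SE 0.09). Of 9 tested chemoattractant and purine receptors, 7 fell and 2 were not called (median -1.72). The complement receptors C3ar1 and C5ar1 were at -3.01 (SE 0.27) and -2.85 (SE 0.32). Of 10 tested scavenger and lectin receptors outside the 41, 6 fell and 4 were not called (median -1.06). Clec5a, a myeloid lectin, was at -3.17 (SE 0.26), and Stab1, a scavenger receptor that endothelium also makes, at -1.34 (SE 0.10).

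Among myeloid transcription factors 8 of 16 tested fell, 0 rose and 8 were not called, with a median of -0.40. Irf8 fell from 5.02 ± 0.685 to 1.35 ± 0.273 CPM (-1.88, SE 0.21, adjusted p = 3.12e-07). Spi1, which encodes PU.1 and is named here after its values were seen, fell from 2.83 ± 0.373 to 0.613 ± 0.466 CPM (-2.18, SE 0.33, adjusted p = 3.88e-05, or -2.96 without Prune2 siRNA replicate 2). Of 10 tested eicosanoid enzymes 1 fell, 1 rose and 8 were not called, with a median of -0.07. Pla2g7, a lipoprotein-associated phospholipase, fell from 35.3 ± 1.10 to 19.2 ± 0.142 CPM (-0.87, SE 0.06, adjusted p = 2.21e-10). The prostaglandin E synthase Ptges rose from 5.75 ± 0.0596 to 7.80 ± 0.469 CPM (0.44, SE 0.12, adjusted p = 0.0179). That call was lost in DESeq2 (0.44, adjusted p = 0.0518) and in edgeR's test without control replicate 2 (0.44, adjusted p = 0.0546) or without Prune2 siRNA replicate 1 (0.42, adjusted p = 0.0608) or 2 (0.41, adjusted p = 0.0672). It was also lost in limma on log2(FPKM + 0.1) (0.43, adjusted p = 0.0751) and on log2(FPKM + 1) (0.29, adjusted p = 0.051).

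**Figure D4:**
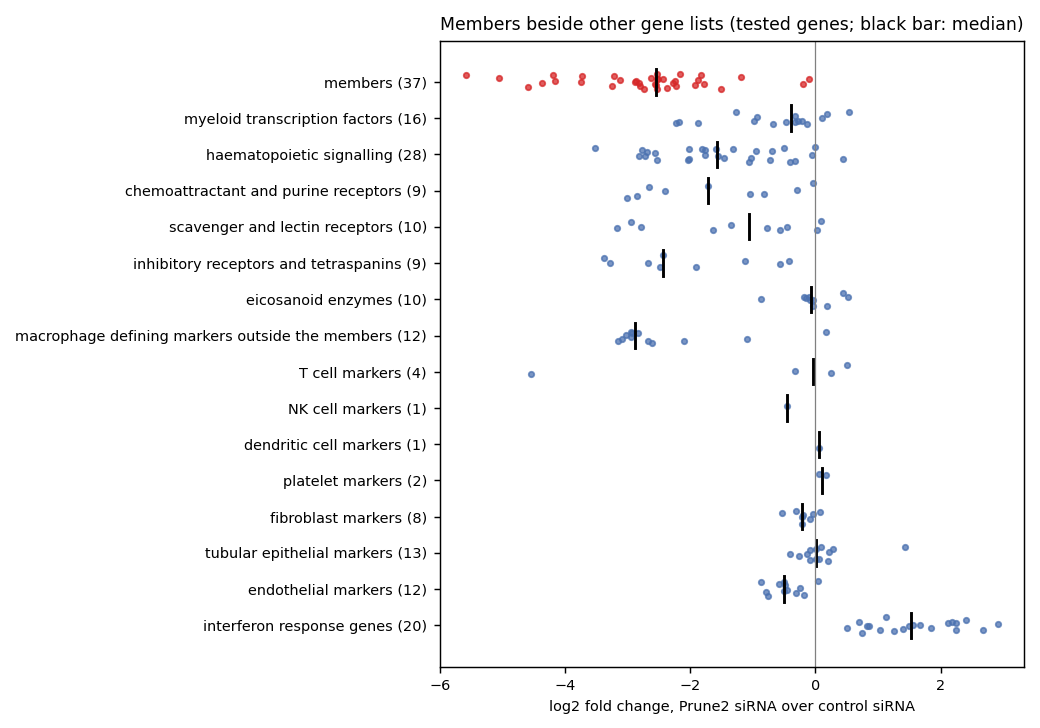
Fitted log2 fold changes of the tested genes in each list, 1 point a gene, with the 37 listed leukocyte genes in red at the top and a black bar at each median. Macrophage markers have a median of -2.88 and interferon response genes one of 1.53.

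Markers of other blood cells were read beside the 41 genes. Of 14 T cell genes, Cd3e, Cd3d, Cd3g, Cd247, Cd8b1 and Cd2 were at 0 in all libraries. The list sum ran from 4.52 to 6.06 CPM in controls and from 4.23 to 6.23 CPM with the siRNA, and 1 of 4 tested genes, Cd4, was called lower, from 0.828 ± 0.385 to 0.0288 ± 0.0249 CPM (SD, n = 3 each; -4.55, SE 0.72). Of 11 B cell, 12 neutrophil and 9 mast cell and basophil genes none could be tested, and the highest sum of any of these lists in any library was 1.05 CPM. Of 10 NK cell genes, 7 were at 0 in all libraries and 1 was tested and not called. Of 8 dendritic cell genes, 3 were at 0 in all libraries and 1, Zbtb46, was tested and not called. The 8 dendritic cell genes summed to between 9.17 and 12.3 CPM in controls and between 9.99 and 11.3 CPM with the siRNA. Nearly all of that sum was Zbtb46 alone, at 10.0 ± 1.42 CPM in controls and 10.4 ± 0.665 CPM with the siRNA (SD, n = 3 each). The 12 macrophage markers, by contrast in level, summed to between 160 and 196 CPM in controls and between 40.5 and 42.3 CPM with the siRNA.

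Lists for interferon response and for other kidney cell types were read in the same way. Of 20 tested interferon response genes all 20 rose (median 1.53), and the list sum went from between 190 and 255 CPM to between 408 and 511 CPM. Of 12 endothelial markers 6 fell and 6 were not called (median -0.50), with sums of 124 to 135 CPM against 92.2 to 97.8 CPM. Of 12 fibroblast markers 8 were tested, and the others were too low. Of the 8, 3 fell and 5 were not called (median -0.21). The list summed to 915 to 954 CPM in controls and 694 to 738 CPM with the siRNA. Most of the sum in every library, and most of that difference, lay in the intermediate filament gene Vim. It stood at 570 ± 31.2 CPM in controls and 395 ± 26.9 CPM with the siRNA (SD, n = 3 each; -0.53, SE 0.04, adjusted p = 3.72e-09, edgeR's quasi-likelihood test). Of 13 tested tubular epithelial markers 3 fell, 3 rose and 7 were not called (median 0.01), and their sum, 5895 to 6053 CPM in controls and 5469 to 5914 CPM with the siRNA, was above that of the fibroblast markers in every library. The part of these lists in the values of the 41 genes was not tested.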

How the data were processed

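RNA-seq of 6 libraries, 3 per siRNA, was analysed from 1 table of 22274 genes. Per the file headers, the authors deposited a read count and an FPKM value per gene and library, mean FPKM values, a log2 ratio of these, and p-values of a test that the sources used here do not name. The authors' log2 and p-value columns are not used. Builds GRCm38 and mm10 stand in the submitters' processing notes, with the aligner and counter not given in the sources used here. Deposited counts went into edgeR 4.0.16 (TMM, filterByExpr, quasi-likelihood test, Benjamini-Hochberg adjustment over 13248 genes, called at an adjusted p under 0.05), after a check on simulated data. CPM uses the TMM-scaled totals of the tested genes. Positions and shared 50-base stretches came from GENCODE M21 (GRCm38), where 22219 IDs matched and 55 did not. The listed genes were found by gene ID: 37 of 41 stand in the deposited symbol column under the listed name, and Tmem273, Ms4a7, Fyb and Lilrb4a under another spelling. Another 2 rows carry a listed symbol with another gene's ID and were left out. Promoters came from RefSeq. The 41 genes and all lists were chosen with earlier results of these data known. Besides the 41 genes and Prune2, up to 2 genes per list and direction were named, those with the smallest adjusted p among called genes at 1 CPM or more, and others only to resolve counts of 5 or fewer or as stated. A gene that this rule names is not reported here. Alternatives were RLE and upper-quartile scaling, no filter, DESeq2 1.42.0, limma 3.58.1 (voom, and log2 of FPKM plus 1 or 0.1), a replicate block and leaving out each library.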

Additional observations from a re-analysis of the deposited data

How the results depend on the processing

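Under 14 alternatives, all 518 values of the 37 tested genes kept a negative sign, and 77 moved by more than the SD between replicates, 55 of them on FPKM. The count of listed genes called lower stayed between 33 and 36, and 31 of 33 were called when only rows of the deposited symbol column were taken, an alternative added after seeing the data. The median of -2.54 became -2.17 on log2(FPKM + 0.1) and -0.94 on log2(FPKM + 1), and lay between -2.66 and -2.48 with a library left out. The SD between genes of 1.16 became 0.823 and 0.536 on these FPKM scales, lay between 1.10 and 1.39 with a library left out, and was 1.00 without Lyn and Arhgdib, also added after seeing the data. The pseudocount compresses low genes by construction. Over all genes, 1364 calls became 777 on log2(FPKM + 0.1), 772 on log2(FPKM + 1) and 997 to 1249 with a library left out. Prune2 lost its call in limma on log2(FPKM + 0.1) (-0.43, adjusted p = 0.169) and log2(FPKM + 1) (-0.24, adjusted p = 0.126); the cause was not tested. Of 19 list genes named, 257 of 266 values kept direction and side of the threshold, and 1, the uncalled Ppbp, changed sign, running from -0.0115 to 0.143 with a library left out (-0.0115 without control replicate 1). Same-numbered libraries did not deviate together (r of 0.0632, -0.003 and 0.0399 over genes), so the replicate block pairs only numbers: with it 1490 genes were called, 35 of the 37 listed genes among them lower. Depth limits the lowest genes: 7 of the 37 had under 10 siRNA counts.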
